A study of Mus musculus with 2 samples.

Results

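The Zfp genes are mouse protein-coding genes whose symbol is Zfp, for zinc finger protein, followed by digits alone. The gene table of the mouse assembly GRCm38 lists 367 of them among 21631 protein-coding genes on the autosomes and X, and the DNA methylation of 337 of these could be measured in blood. CpG cytosines were assigned to a gene end, within 1 kb of either annotated end, or to the gene body between the end regions. A part was used when it held at least 3 cytosines that both libraries listed with 10 or more reads. The end with more such cytosines is called the CpG-richer end, and 296 Zfp genes were measured there, 53 at the other end and 242 in the body. No part could be measured in 30 Zfp genes, among them Zfp300 and Zfp92 on X. Another 30 genes with a letter after the number were left out by the rule.

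The measurement was reduced representation bisulfite sequencing, in which MspI cuts DNA at CCGG and bisulfite turns unmethylated cytosines into bases read as T. There were 2 libraries of peripheral blood cells, 1 from WT mice and 1 from I-PpoI mice. I-PpoI is a homing endonuclease that makes DNA double-strand breaks, and the series title places its expression in the proximal tubule epithelium of the kidney, not in blood. The driver of the transgene, the strain, age and sex, and the number of mice behind each library are not stated in the sources used here. The comparison asks how blood DNA methylation at the Zfp genes differs between these libraries. With 1 library per group, every p-value below compares the reads of the libraries and not the conditions, and differences have no replicate check.

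Zinc finger proteins of this kind bind DNA through arrays of small zinc-holding loops, each reading a few bases. Many carry a KRAB domain, which recruits the corepressor TRIM28 and, through it, the histone methyltransferase SETDB1, heterochromatin proteins and DNA methylation, so that retroviral repeats and imprinted loci stay silent. The genes often lie in tandem clusters that arose by duplication, and in many of them the 3′ exon encodes the fingers and carries heterochromatin marks. A CpG-rich promoter is usually unmethylated where it can be used, while gene bodies are usually methylated.

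The libraries listed 3569384 (WT) and 3141563 (I-PpoI) cytosines with a median coverage of 53 and 49 reads. They shared 3030488 cytosines on the autosomes and X, of which 39670 lay in Zfp genes, with a median coverage of 72 and 62 reads. Read counts did not behave as counts of independent molecules. At Zfp cytosines with a level above 0 and under 20%, a methylated count of 2 made up 39.5% of WT cytosines and a count of 1 only 9.97%; in I-PpoI the shares were 42.4% and 12.2%. Even counts made up 76.6% and 74.6%. The cause was not tested, but p-values below may be too small and intervals too narrow, so each call was repeated with all read counts halved, a check added after these values were seen. Coverage in I-PpoI relative to WT had a median ratio of 0.917 at Zfp cytosines under 20% and 0.698 at those over 80%. Levels are therefore means over cytosines with equal weight, and tests compare the libraries within each cytosine. As a check of the tissue label, the CpG-richer ends of 8 measured leukocyte marker genes had median levels of 7.63% in WT and 4.41% in I-PpoI, and those of 7 kidney proximal tubule genes 79.2% and 85.4%. The lists overlap gene by gene: of the leukocyte ends Rac2 (54.7% in WT), Fermt3 (98.2%) and Arhgdib (94.0%) were methylated, and of the kidney ends Lrp2 (6.67%) and Slc27a2 (20.2%) were low. All 8 leukocyte ends were lower in I-PpoI, with differences of -0.298 to -10.3 points, and 0 were called. Of the 7 kidney ends 6 were also lower, with a median difference of -2.25 points, against -1.69 at the leukocyte ends. The kidney median is higher in I-PpoI only because a different gene is in the middle, Slc22a8 in WT and Cubn in I-PpoI. Among kidney ends 1 was called lower and 1 higher. The part of cell makeup in the results was not tested.

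Promoter sequences of 305 Zfp genes, from RefSeq GRCm38.p6 with 250 bases before and 50 after the annotated start, show what MspI could reach. The first 3 below had the highest levels of the measured Zfp promoters with at least 5 cytosines, the next 3 had low levels, and Zfp652 is the gene with the largest called difference between libraries. They are written 5′ to 3′ on the gene's strand, with the CGs measured in both libraries in capitals. Zfp977 is chr7:42592496-42592795 (minus strand), Zfp640 chr13:66680754-66681053 (minus), Zfp112 chr7:24112070-24112369 (plus), Zfp383 chr7:29908267-29908566 (plus), Zfp944 chr17:22361351-22361650 (minus), Zfp36 chr7:28379179-28379478 (minus) and Zfp652 chr11:95748817-95749116 (plus).
Zfp977: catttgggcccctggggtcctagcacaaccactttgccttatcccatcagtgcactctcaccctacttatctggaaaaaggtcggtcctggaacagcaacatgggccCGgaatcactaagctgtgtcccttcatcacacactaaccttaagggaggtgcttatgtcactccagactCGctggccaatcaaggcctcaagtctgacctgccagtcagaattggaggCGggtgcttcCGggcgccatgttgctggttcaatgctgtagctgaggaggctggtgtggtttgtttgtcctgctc
Zfp640: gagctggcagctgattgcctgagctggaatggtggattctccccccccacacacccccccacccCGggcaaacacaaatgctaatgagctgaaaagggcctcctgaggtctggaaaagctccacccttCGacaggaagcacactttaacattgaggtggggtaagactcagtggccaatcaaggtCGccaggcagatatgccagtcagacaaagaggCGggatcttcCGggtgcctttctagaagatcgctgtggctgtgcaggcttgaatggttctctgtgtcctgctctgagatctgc
Zfp112: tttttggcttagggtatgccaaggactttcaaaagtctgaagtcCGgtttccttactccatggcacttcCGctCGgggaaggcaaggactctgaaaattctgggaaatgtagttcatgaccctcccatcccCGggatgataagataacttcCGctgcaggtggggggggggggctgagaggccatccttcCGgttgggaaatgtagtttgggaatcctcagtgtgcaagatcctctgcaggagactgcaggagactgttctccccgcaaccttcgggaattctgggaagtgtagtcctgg
Zfp383: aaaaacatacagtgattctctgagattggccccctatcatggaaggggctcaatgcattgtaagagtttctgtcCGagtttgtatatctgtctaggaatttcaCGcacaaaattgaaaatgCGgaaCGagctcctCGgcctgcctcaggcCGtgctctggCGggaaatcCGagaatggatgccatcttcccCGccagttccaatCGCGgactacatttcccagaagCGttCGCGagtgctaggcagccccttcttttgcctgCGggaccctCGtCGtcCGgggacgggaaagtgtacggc
Zfp944: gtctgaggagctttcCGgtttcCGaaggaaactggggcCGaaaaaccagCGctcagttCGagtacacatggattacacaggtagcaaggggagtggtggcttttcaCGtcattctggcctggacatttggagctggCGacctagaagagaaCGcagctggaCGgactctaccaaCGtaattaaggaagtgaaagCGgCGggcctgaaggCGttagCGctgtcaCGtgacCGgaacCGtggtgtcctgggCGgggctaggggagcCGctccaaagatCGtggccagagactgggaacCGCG
Zfp36: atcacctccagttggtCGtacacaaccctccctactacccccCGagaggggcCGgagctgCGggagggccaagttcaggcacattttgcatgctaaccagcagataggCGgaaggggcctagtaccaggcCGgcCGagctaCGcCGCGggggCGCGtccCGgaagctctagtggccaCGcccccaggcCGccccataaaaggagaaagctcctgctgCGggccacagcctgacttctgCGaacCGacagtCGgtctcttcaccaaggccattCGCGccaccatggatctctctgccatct
Zfp652: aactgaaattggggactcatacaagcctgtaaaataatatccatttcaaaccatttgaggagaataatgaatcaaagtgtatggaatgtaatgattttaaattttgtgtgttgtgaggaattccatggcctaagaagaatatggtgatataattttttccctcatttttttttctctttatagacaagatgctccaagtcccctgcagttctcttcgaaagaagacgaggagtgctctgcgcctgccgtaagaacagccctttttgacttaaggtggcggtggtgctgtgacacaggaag

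The methylated promoters among those printed were CpG-poor. The Zfp977 promoter has 6 CGs, 4 of them measured, and stood at 91.6% in WT and 79.6% in I-PpoI. The Zfp640 promoter also has 6 CGs, with 75.5% and 70.8%, and the Zfp112 promoter has 8, with 50.4% and 41.6%. In the CpG-rich promoters nearly every read was unmethylated: Zfp383, with 20 CGs, stood at 0.163% and 0.0794%, and Zfp944, with 22, at 0.230% and 0.472%. Zfp36, which encodes tristetraprolin, an RNA-binding protein that speeds decay of cytokine mRNAs, has 21 CGs and stood at 3.66% and 4.58%. Zfp652 has 5 CGs and no CCGG in this window, and none of its CGs was measured.

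**Figure D1:**
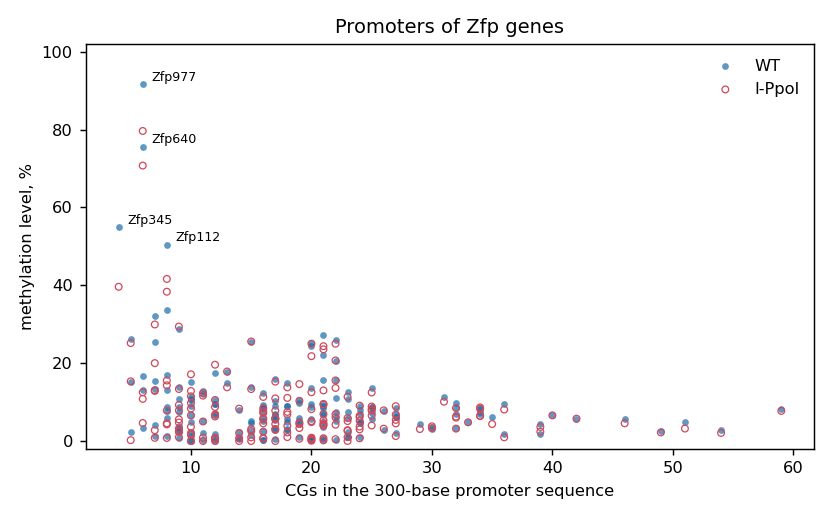
Methylation level (%, mean over cytosines) of the 185 measured Zfp promoters against the number of CGs in the 300-base promoter sequence, with filled points for WT and open points for I-PpoI. Levels above 40% occur in the labelled promoters, all with 8 or fewer CGs, and promoters with 31 or more CGs reach at most 11.3% in WT.

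Across the family most promoters were weakly methylated, and the highest levels were at CpG-poor ones. Of 305 promoters 185 were measured, and 169 of these stood under 20% and 1 over 80% by the mean of both libraries. Their median level was 6.90% in WT and 5.75% in I-PpoI, against 6.61% and 5.87% for all 10738 measured promoters. The highest WT level was 54.9% among the 4 measured promoters with 5 or fewer CGs, 91.6% among the 40 with 6 to 10, 25.5% among the 69 with 11 to 20, 27.2% among the 50 with 21 to 30 and 11.3% among the 22 with 31 or more. The medians of these classes were 20.7%, 8.96%, 5.65%, 7.05% and 6.45%, so above 10 CGs they did not fall further with CpG content. Zfp promoters held a median of 13 CGs, against 7 over 26794 promoters of all genes and 14 over those of protein-coding genes. CCGG, the MspI site, was in 72.8% of Zfp promoters, 53.05% of all and 62.5% of those of protein-coding genes. It was in 99.5% of the measured Zfp promoters and in 31.7% of the 120 that were not measured, so the unmeasured ones are CpG-poorer, with a median of 8 CGs against 18.

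Other short motifs were searched on both strands. CCAAT was in 50.5% of Zfp promoters and 38.2% of all, and TATAAA in 6.23% and 14.2%. TGCCGC, the hexamer that ZFP57 binds when its CpG is methylated, was in 15.4% and 11.6%. The highly methylated promoters Zfp977 and Zfp640 share the run TGGCCAATCAAGG, which contains CCAAT and was looked for after their levels were seen. It occurred in 5 Zfp promoters (1.64%) and in 23 of all promoters (0.0858%), and both counts include Zfp977 and Zfp640, from which it was taken. Of the 4 measured Zfp promoters with it, the 2 besides Zfp977 and Zfp640 stood under 20% in WT.

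In blood DNA most Zfp genes had low methylation at the start, and a majority had high methylation along the body and at the 3′ end. By the mean of both libraries 201 of 234 measured 5′ ends stood under 20%, and 39 of 56 measured 3′ ends stood over 80%. Of 242 bodies 144 stood over 80%, 60 between 20 and 80% and 38 under 20%. The strand was given for 305 Zfp genes, and in 229 of the 245 with a measured CpG-richer end (93.5%) that end was the 5′ end, against 85.7% over all genes with a strand. In the 250 bp before the 5′ end the median level over 133 Zfp genes was 7.71% in WT and 6.71% in I-PpoI. In the 250 bp after it, over 184 genes, it was 7.31% and 6.38%. Levels stayed low to about 1 kb and were widely spread between 1 and 2 kb, where the medians over 55 genes were 15.3% and 16.6%. From 2 to 5 kb the medians were 92.3% and 86.8% over 78 genes, with lower quartiles of 28.4% and 24.95%, and in the last 500 bp of the gene 93.2% and 90.2% over 20 genes. In 43 of 45 Zfp genes with both ends measured the 3′ end was more methylated in WT, with a median gap of 82.2 points.

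**Figure D2:**
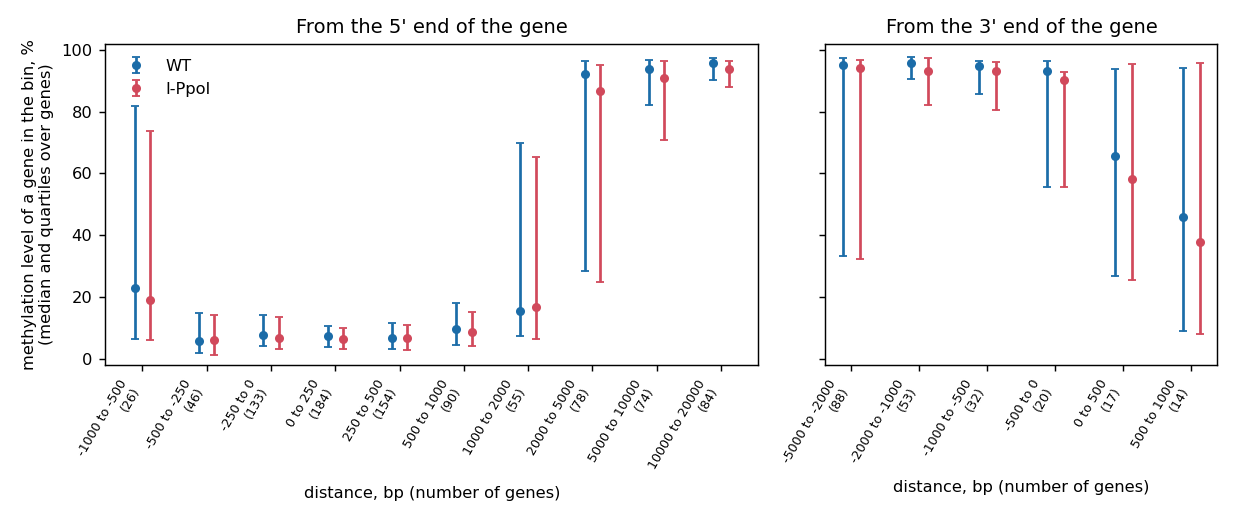
Methylation level (%) of Zfp genes by distance in bp from the 5′ end (left) and from the 3′ end (right), in WT (blue) and I-PpoI (red). Points are medians over the genes given in brackets and bars span the quartiles over genes, not replicate error. Both libraries show low levels around the start and medians above 85% from 2 kb into the gene, with a wide spread over genes from 2 to 5 kb.

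The extremes lay far from these medians. Among CpG-richer ends with at least 10 cytosines the lowest levels were at the 5′ ends of Zfp383 (0.255% in WT, 0.0772% in I-PpoI), Zfp944 and Zfp758, which share an end (0.384% and 0.404%), Zfp868 (0.474% and 0.975%) and Zfp719 (0.814% and 0.333%). The highest were at Zfp428 (97.0% and 94.95%), Zfp688 (96.9% and 95.9%), Zfp566 (96.6% and 95.9%), Zfp109 (95.7% and 92.9%) and Zfp366 (95.7% and 89.1%). For the first 4 of these genes that end is the 3′ end; no strand was given for Zfp366. The remaining examples were chosen after their values were seen. Methylated 5′ ends were rare: 2 of 234 measured 5′ ends stood over 80% by the mean of both libraries, Zfp229 (96.5% and 96.3%, 6 cytosines) and Zfp977. For Zfp229 the start of the RefSeq promoter lies 2769 bp from the annotated end, outside the end region. The promoter of Zfp229 held 0 measured cytosines. Zfp541, a germ-cell gene, stood at 77.8% and 76.9% over 79 cytosines of its 5′ end. Of 56 measured 3′ ends 9 stood under 20%, including Zfp771 (3.70% and 3.18% over 243 cytosines), Zfp174 (5.38% and 4.62%) and Zfp36 (9.45% and 9.88%). Zfp36 was thus low at both ends.

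At the CpG-richer end 2 of 296 Zfp genes were called lower in I-PpoI and none higher. A call needs an adjusted p under 0.01 by a Cochran-Mantel-Haenszel chi-square test over cytosines, adjusted by Benjamini-Hochberg over all genes of the table, and levels at least 10 percentage points apart. Over all 24178 genes tested 2.68% were called lower and 0.339% higher, and over other protein-coding genes 1.46% were lower. An end under 10% in WT cannot fall by 10 points, and 119 Zfp ends stood at 10% or more. Median levels were 8.25% in WT and 7.43% in I-PpoI. The median difference, I-PpoI minus WT, was -0.665 points, against -0.711 over all genes. In 279 of the 296 ends the libraries lay within 5 points of each other. Among the 37 Zfp ends between 20 and 80%, 1 was called lower and the median difference was -1.16, against 11.6% called and -2.88 over all genes in that class. Among the 16 over 80%, 1 (6.25%) was called lower and the median difference was -1.59, against 4.14% and -1.32. Of the 243 under 20%, 0 were called, against 0.171% lower over all genes. The Zfp genes were not set apart by a test, and these shares are descriptions.

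**Figure D3:**
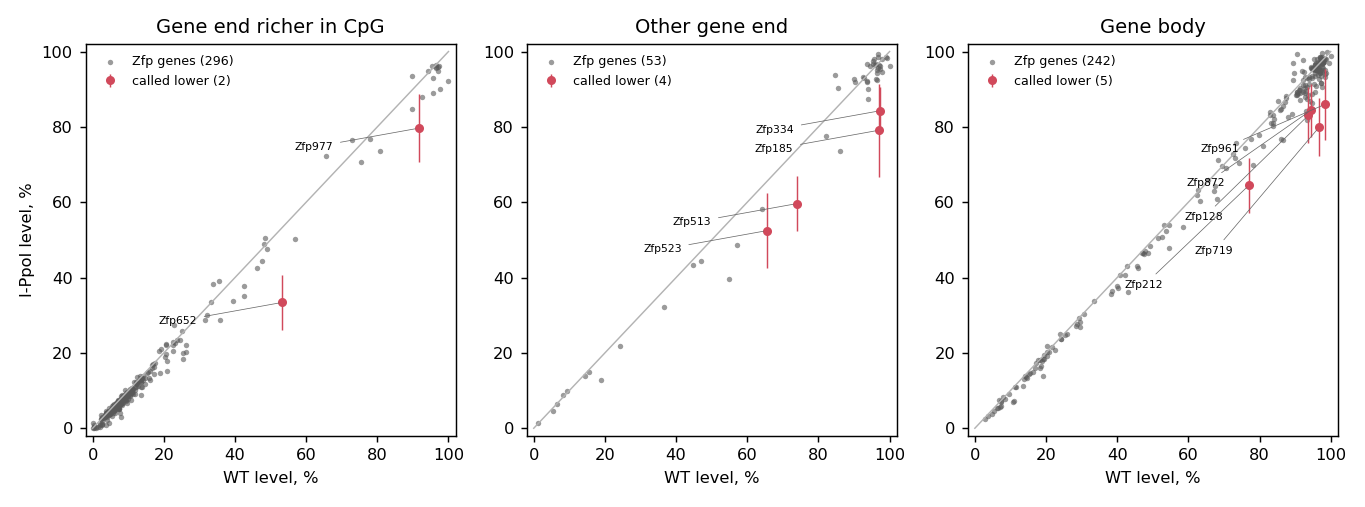
Methylation level (%) in I-PpoI against WT for each Zfp gene at the CpG-richer end, the other end and the body, with a line of equal levels. Called genes are red and labelled, with 95% intervals of the difference that cover counting error only; all 11 lie below the line, and most other genes lie close to it.

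The larger of both called differences was at Zfp652 (chr11:95749067-95764715, plus strand), which encodes a transcriptional repressor that works with corepressors of the ETO family. Its 8 measured cytosines lay at chr11:95749539-95749818, 472 to 751 bp into the gene and all on the forward strand. Their mean level was 53.3% ± 14.5 in WT and 33.4% ± 12.1 in I-PpoI (SD over cytosines, which are not replicates). The difference was -19.9 points (95% interval -27.3 to -12.6, counting error only; adjusted p = 1.9e-06, Cochran-Mantel-Haenszel chi-square). The level was lower in 7 of the 8 cytosines, going from 48.1% to 14.8% at the first and from 72.2% to 30.0% at the seventh, while the fifth went from 25.9% to 30.0%. Depth was 52 to 90 reads in WT and 27 to 49 in I-PpoI. With read counts halved the adjusted p was 0.00238 and the call held.

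Zfp977 (chr7:42579397-42592545, minus strand) was called on its methylated promoter, which is printed above. Its 6 cytosines averaged 91.6% in WT and 79.6% in I-PpoI, which is -11.96 points (95% interval -21.0 to -2.94; adjusted p = 0.00997 by the Cochran-Mantel-Haenszel chi-square test). The difference was largest at a single CpG, read at 86.7% and 40% on the forward strand and 92.9% and 57.9% on the reverse strand. Of the other 4 cytosines 1 was lower, 2 were higher and 1 was equal. Depth was 55 to 75 reads in WT but 10 to 20 in I-PpoI, and with counts halved the adjusted p was 0.116.

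At the other end 4 of 53 Zfp genes were called lower and none higher, against 5.84% lower and 0.468% higher over 7258 genes. The share was therefore near that of all genes. In each of these 4 genes the called end is the 3′ end, and the CpG-richer 5′ end stood at 23.1% or lower in WT. Zfp334 (chr2:165374264-165388315) fell from 97.2% to 84.3% over 12 cytosines, a difference of -12.9 points (95% interval -19.1 to -6.72; adjusted p = 4.2e-06 by the same chi-square test). The level was lower in 8 cytosines, and the other 4 were fully methylated in both libraries; the largest was from 100% of 21 reads to 33.3% of 12 reads. Halving the counts gave Zfp334 an adjusted p of 0.00489, so it stayed called.

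The remaining calls at this end lost significance with halved counts. Zfp513 fell from 73.9% to 59.6% over 8 cytosines (adjusted p = 7.9e-05, Cochran-Mantel-Haenszel chi-square; 0.0168 with halved counts), with levels that ranged in WT from 24.7% to 100% within 229 bp. Zfp185, which despite its symbol encodes an actin-associated LIM domain protein, lies on X and fell from 96.9% to 79.1% over 5 cytosines read 10 to 22 times (chi-square adjusted p = 0.00445; 0.105 halved). Zfp523 fell from 65.6% to 52.5% over 3 cytosines (chi-square adjusted p = 0.00978; 0.138 halved). Over all 53 ends the medians were 93.7% for WT and 92.3% for I-PpoI, with a median difference of -1.09 points, against -1.26 over all genes.

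**Figure D4:**
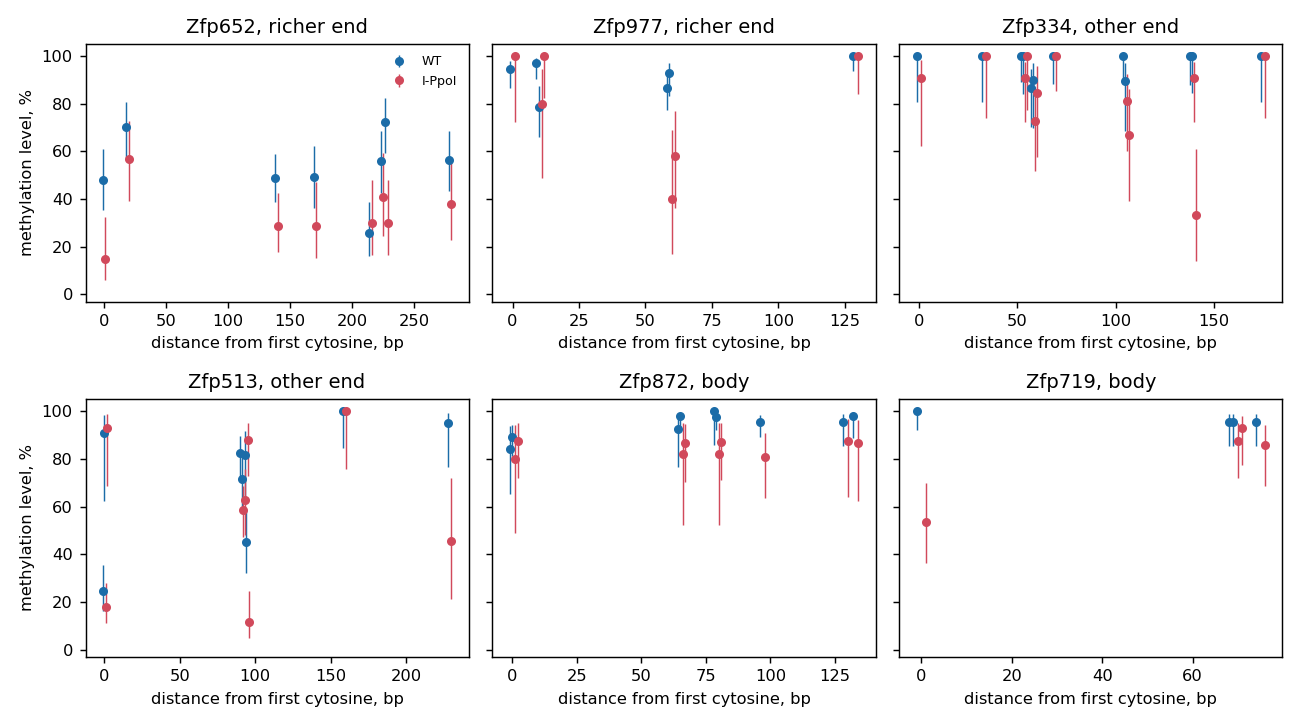
Methylation level (%) of each cytosine against its distance in bp from the first cytosine, for 6 of the 11 called parts, in WT (blue) and I-PpoI (red). Bars are 95% Wilson intervals that cover counting error only. In Zfp652 and the Zfp872 body the difference is spread over the cytosines, whereas in Zfp977, Zfp334 and Zfp719 a few cytosines carry most of it.

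In the bodies 5 of 242 Zfp genes were called lower and none higher, against 4.17% lower and 0.335% higher over 19696 genes. The median level was 90.4% in WT and 86.7% in I-PpoI, with a median difference of -0.968 points, against -1.60 over all genes. Zfp719 (chr7:43579559-43593710) fell from 96.7% to 79.9% over 4 cytosines (-16.8 points, 95% interval -24.6 to -9.13; adjusted p = 9.9e-06, Cochran-Mantel-Haenszel chi-square). Most of that was 1 cytosine, methylated in 45 of 45 reads in WT and 16 of 30 in I-PpoI. Its own 5′ end, among the lowest of the family, was under 1% in both libraries. Zfp719 stayed called with halved counts (chi-square adjusted p = 0.0046) and the other 4 did not.

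Those 4 body calls rested on 19 to 92 reads a cytosine in WT and 10 to 55 in I-PpoI. Zfp961, a repressor of retroviral repeats, fell from 98.4% to 86.0% over 4 cytosines (adjusted p = 0.000319 by the same chi-square test; 0.0232 halved). Zfp872 fell from 94.5% to 84.4%, with all 9 cytosines lower (chi-square adjusted p = 9.0e-05; 0.0129 halved). The 5′ end of Zfp872 went the other way, from 65.7% to 72.3% over 20 cytosines, 14 of them higher (adjusted p = 3.0e-06, Cochran-Mantel-Haenszel chi-square), a difference of 6.62 points that was the most positive among the CpG-richer ends and short of a call. Zfp212 fell from 77.0% to 64.5% over 8 cytosines (chi-square adjusted p = 0.00243; 0.0589 halved) and Zfp128 from 93.8% to 83.1% over 11 (adjusted p = 0.0031; 0.067 halved).

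Differences under 10 points were not called but covered many cytosines in a few genes, which were chosen after their values were seen. In the body of Zfp316 the level was 19.1% in WT and 13.8% in I-PpoI over 590 cytosines, with 417 lower, 125 higher and 48 equal (adjusted p = 3.3e-193 by the Cochran-Mantel-Haenszel chi-square test, 2.7e-95 halved). The difference was -4.62 points on the forward and -5.80 on the reverse strand. It ran through 3 adjoining kilobases of chr5:143253001-143256000, with means of 13.1% and 8.94%, 18.3% and 12.5%, and 23.2% and 16.1%. Coverage there was higher in I-PpoI than in WT, with medians of 110 against 100, 74 against 52 and 103 against 78 reads.

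The body of Zfp503, a repressor active in the developing striatum and limb, went from 10.9% to 7.21% over 398 cytosines, 216 lower and 87 higher (adjusted p = 2.0e-94, Cochran-Mantel-Haenszel chi-square). The CpG-richer end of Zfp580, which overlaps an end of Ccdc106, went from 25.3% to 18.5% over 104 cytosines (adjusted p = 5.3e-24 by the same chi-square test). At the 5′ end of Zfp212 the level was 8.10% and 3.01% over 54 cytosines, but the strands differed: 3.54% and 3.24% on the forward strand, 15.3% and 2.64% on the reverse. The bodies of Zfp316 and Zfp503 show how the threshold of 10 points passes over wide, shallow differences.

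Single cytosines of Zfp genes differed in both directions. A single cytosine counts as called when Fisher's exact test gives an adjusted p under 0.01 and the levels lie at least 25 points apart. Of 39670 Zfp cytosines 90 were called lower, in 43 genes, and 30 higher, in 12 genes. These are 0.227% and 0.0756% of Zfp cytosines, against 0.437% and 0.0594% over all shared cytosines. With counts halved and rounded up, 2 Zfp cytosines were called lower and 5 higher, the latter all inside Zfp978. Over all shared cytosines 591 were then lower and 90 higher, which is 0.0195% and 0.00297%, against 0.00504% and 0.0126% of Zfp cytosines.

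Zfp978, in a cluster of KRAB zinc finger genes on chromosome 4, held the densest rise, a stretch noticed after the values were seen. The bounds of the stretch are the first and last cytosine of Zfp978 called higher, so its calls and its gap follow from that choice. At chr4:147219483-147219645, inside the gene and spanned by no other annotated gene, all 32 cytosines were higher in I-PpoI and 17 were called. Their mean was 60.9% in WT against 90.4% in I-PpoI, 29.6 points higher. Within it the levels did not overlap: WT cytosines lay between 47.7% and 74.1% and I-PpoI cytosines between 74.3% and 100%. Neighbouring cytosines share reads, so these 32 values are not independent. Coverage moved as well, with a median of 220.5 reads in WT and 87 in I-PpoI, a median ratio of 0.387; its part in the difference was not tested. The whole body of Zfp978 stood at 69.5% and 69.7% over 364 cytosines, and its CpG-richer end at 19.1% and 14.7%. Elsewhere in that body 5 cytosines were called lower, with differences of -25.6 to -35.3 points, 4 of them within chr4:147275538-147276087. Near-identical copies in the cluster could share reads, so the origin of these reads within the cluster is uncertain.

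**Figure D5:**
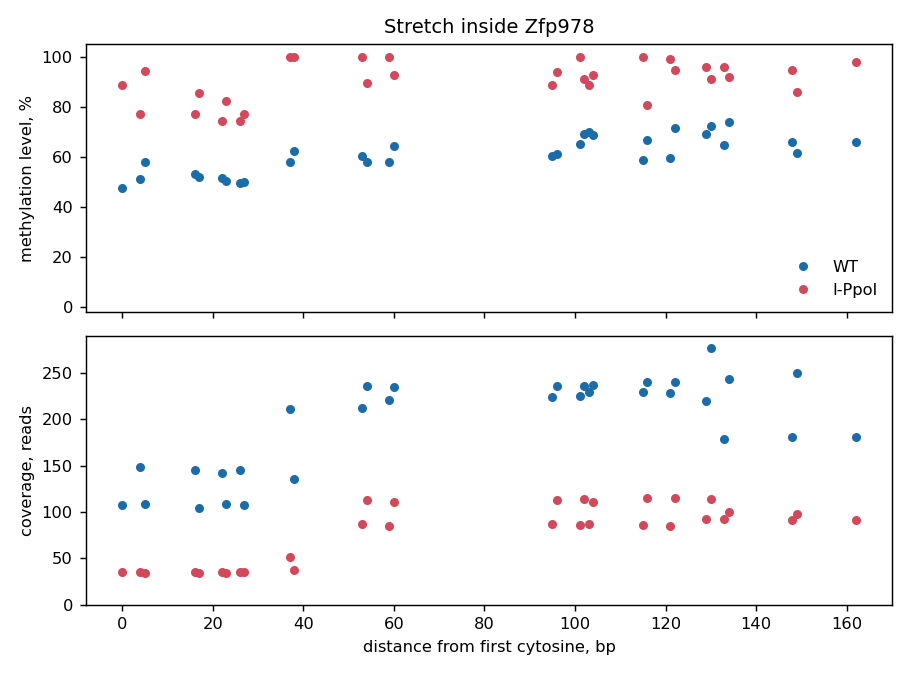
Methylation level (%, top) and coverage in reads (bottom) of 32 cytosines inside Zfp978 against distance in bp from the first, in WT (blue) and I-PpoI (red). All I-PpoI levels lie at 74.3% or above and all WT levels at 74.1% or below, while WT coverage is higher at each cytosine.

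Among genes grouped by known role, levels at the CpG-richer end were low in most and none of these ends was called in any of 5 groups of Zfp genes. Over all genes 2.68% of such ends were called lower, so in groups this small an absence of calls says little. In the group for imprint control and silencing of retroviral repeats 7 ends had a median WT level of 7.95%. Zfp568, which represses a placental Igf2 transcript, stood at 5.17% and 4.06%, Zfp202 at 10.2% and 9.67%, and Zfp445, which with ZFP57 keeps imprints methylated, at 6.98% and 5.41%. Zfp57 itself was measured at its 3′ end, which overlaps an end of Mog, at 5.62% and 4.11% over 7 cytosines. Of 6 bodies in this group 1 (16.7%) was called lower, that of Zfp961, against 4.17% over all genes. A single call among 6 bodies does not set the group apart.

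The 10 measured blood and immune regulators had a median end level of 6.66% in WT and a median difference of -0.309 points. Zfp318, needed for IgD on B cells, stood at 4.205% and 4.10% over 292 cytosines, Zfp281 at 7.05% and 7.17%, and Zfp148 at 4.43% and 3.98%. Zfp335, needed for T cell maturation, was higher, at 13.7% and 12.2%. In this group the differences at the ends ran from -2.18 points, at Zfp91, to 0.918, at Zfp219.

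Genes of pluripotent, germ and early embryo cells were mixed, with a median of 12.4% over 6 ends. Zfp553 stood at 4.48% and 4.21% and Zfp296, a partner of KLF4, at 6.41% and 4.81%. Zfp42, also called Rex1 and used as a marker of pluripotent cells, was methylated at both ends, at 92.5% and 87.9% at the 3′ end and 82.2% and 77.4% over 10 cytosines at the 5′ end. Both differences of Zfp42 missed the call.

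Among genes of neural, fat and epithelial development 8 ends had a median of 6.71%. Zfp704 stood at 5.90% and 4.97%, Zfp609 at 6.72% and 6.30% and Zfp407 at 6.69% and 6.51%. Zfp536, a repressor of neuronal differentiation, was the exception at 42.5% and 37.9% over 29 cytosines. Zfp423, which sets fat cell precursors and cerebellar progenitors apart, was low at its 5′ end (6.64% and 5.49%) and at 42.3% and 40.8% over the 958 cytosines of its body, the most of any Zfp body.

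The 8 ends of genes for chromatin architecture and transcription had a median of 7.54%. Zfp143, which binds promoters and helps loop DNA, stood at 7.46% and 7.54%, Zfp592 at 5.14% and 4.69% and Zfp326 at 6.14% and 6.51%. The genes that KRAB zinc finger proteins work through were also low. The 20 measured ends of these KRAB partners had a median of 5.76% in WT, and 0 were called. All 20 stood under 20%, a class in which 0.171% of ends were called lower over all genes. Only 1 of them stood at 10% or more in WT. None of their 19 bodies was called either, against 4.17% lower over all genes, so the absence of calls says little about them. Trim28 stood at 4.88% and 4.51% and Setdb1 at 9.84% and 9.41%.

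Position in the genome was not used to choose the genes. There were 212 Zfp genes with another Zfp gene within 100 kb and 155 without, and chromosome 7 held 90 of the 367. The median WT level at the CpG-richer end was 9.38% in 164 clustered genes and 7.74% in 132 single ones. Each group had 1 call there, 0.610% and 0.758%, against 2.68% called lower over all genes. In the bodies the median WT level was 93.1% in 128 clustered and 83.7% in 114 single genes. There 5 (3.91%) and 0 were called lower, against 4.17% over all genes, and the contrast was not tested. Of 4 measured ends on X, Zfp275 stood at 2.67% and 2.04%, Zfp185 at 6.28% and 3.98%, Zfp711 at 9.19% and 10.1% and Zfp449 at 12.04% and 9.15%.

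Related zinc finger genes outside the name rule also had low levels at the CpG-richer end. The 38 measured ends of Zbtb genes had a median WT level of 6.97%, the 18 of Zscan and Zkscan genes 8.24% and the 25 of Zfp genes with a letter after the number 8.54%, and 0 were called in each. Of their bodies 1 of 33, 0 of 17 and 1 of 24 were called lower. Over all genes 2.68% of such ends and 4.17% of bodies were called lower. Groups this small cannot be told apart from those shares.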

How the data were processed

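DNA methylation was measured by bisulfite sequencing of MspI fragments in peripheral blood cells, in 1 WT and 1 I-PpoI library. Per the labels' protocols, a Zymo-Seq RRBS kit was used. Per the submitters' processing notes, methylKit was run, with no version given. How reads were trimmed, aligned and screened for duplicates, and against which build, is not given in the sources used here. The submitters' regions, fold rule and motif search were not repeated.

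Per the file headers, the deposited coverage is the count of reads over each cytosine on its strand, while deposited percent values say how many of them read as C or T. No cytosine under 10 reads was listed, tested on the files. Percent times coverage was whole, within 1e-06, at 100% of cytosines, which gave methylated read counts. Of WT cytosines inside RefSeq GRCm38.p6 promoter sequences, 99.9% lay on the C of a CG, so coordinates of that build were used. The gene table gives ends but no exons, so whether a position is exonic or intronic was not analysed here; strand came from the promoter table.

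Cytosines of both libraries on the autosomes and X were joined by chromosome, base and strand. A part's level is the mean over its cytosines. The two-sided Cochran-Mantel-Haenszel test was stratified by cytosine, with Benjamini-Hochberg adjustment over all genes measured in that part. It was written in Python 3.11.15 with scipy 1.17.1 and tested on simulated data with independent reads at each cytosine. That simulation cannot show how the test behaves where counts are not independent. Neighbouring cytosines share reads and a read is counted at each cytosine, so the tests treat counts as independent that are not; intervals cover counting error only, since no molecular identifiers were available. The members, gene lists and rules were chosen with earlier results of these data known. The text names each called gene, the 5 highest and 5 lowest ends with at least 10 cytosines, and up to 3 genes per list with the most cytosines; others were chosen after their values were seen. Of the list members 1, Zfp238, was not matched in the gene table. Protein classes such as KRAB domains were not analysed here, and 16 alternative settings were planned and 1 added.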

Additional observations from a re-analysis of the deposited data

How the results depend on the processing

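Counts of calls were repeated under 17 alternatives, median differences under 11 and single called genes under 11 to 16, and no median or single-gene difference changed sign. The counts were small, and most settings moved them at the richer end and the other end, though not in the body. With ends of 500 bp the richer end went from 2 lower and 0 higher to 0 lower and 1 higher. No paired analysis was possible because each group has 1 library, and for the same reason leaving out a replicate could not be done. The scaled test, which divides by the spread between cytosines, called 0 Zfp genes at the CpG-richer end, the other end and the body, and a minimum of 20 points also called 0, 0 and 0. Few of all genes were called lower there either: 0.65%, 1.30% and 1.12% by the scaled test. At 20 points the shares of all genes were 0.66%, 1.53% and 0.89%. With read counts halved, a setting chosen after seeing the data, 1 was called at the richer end, 1 at the other end and 1 in the body. At least 10 cytosines left 0, 1 and 1, and at least 5 left 3 bodies, since fewer parts qualify. The shares of all genes were 1.5%, 4.6% and 2.8% with 10 cytosines, and 3.8% of bodies with 5. At the richer end 1 was called with a coverage minimum of 20, 1 after thinning to equal depth, 3 on the forward strand alone, 9 at a minimum of 5 points, 9 with a 1.5-fold rule, 0 with ends of 500 bp and 4 with ends of 2 kb. Zfp872 was then called higher on the forward strand, at 5 points and with 500 bp. At the other end 2 were called with a coverage minimum of 20, 2 with 30, 2 after thinning, 1 on each strand alone (the forward strand also called Zfp651 higher) and 0 with the 1.5-fold rule. In the body 12 were called with pooled reads and Fisher's exact test, 14 at 5 points, with Zfp213 higher, and 2 with the 1.5-fold rule. These larger counts stood beside larger shares over all genes: 6.25% of richer ends and 11.6% of bodies at 5 points, 8.86% of bodies with pooled reads (4.96% of Zfp bodies) and 2.71% of richer ends with the 1.5-fold rule (3.04% of Zfp ends). The Zfp share called lower exceeded that of all genes under 1 alternative at the richer end, 7 at the other end and 0 in the body. The body median was -1.84 with pooled reads. The median at the other end was -0.689 on the reverse strand, -0.711 and -0.646 with at least 5 and 10 cytosines, and -0.694 and -0.612 with ends of 500 bp and 2 kb. Where no construction is named, the cause was not tested. Zfp652 kept its call under 12 alternatives and lost it under 2, and Zfp334 kept its own under 12 and lost it under 4; Zfp872 lost its body call under 10 and kept it under 6. The median 95% interval reached 1.06, 3.20 and 4.62 points to either side at richer Zfp ends under 20%, from 20 to 80% and over 80%, with medians of 61, 12 and 12 cytosines, and 1.39, 7.38 and 4.30 points at the other end; depth and number of cytosines were not separated.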

Other observations

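Cytosines of Zfp genes listed in only 1 library differed in level between the libraries. WT alone listed 5252, with a median level of 90.9% and a median coverage of 15 reads. I-PpoI alone listed 1090, with a median level of 11.1% and a median coverage of 12 reads. They entered no comparison.

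Both strands were listed at 17107 CpGs of Zfp genes. The strands lay within 20 points of each other at 88.5% of them in WT and 88.2% in I-PpoI.

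Several called single cytosines lay in each of a few Zfp genes whose parts were not called, named here after their values were seen. Over all shared cytosines 0.437% were called lower, against 0.227% of Zfp cytosines. The bodies of Zfp316 and Zfp503 alone hold 590 and 398 measured cytosines. The counts below were not set against the number of cytosines in each gene. Zfp503 and Zfp993 had 7 cytosines called lower each and Zfp316 had 6. Zfp993 also had 1 called higher, from 0% of 34 reads to 40% of 30 reads on the forward strand, close to 2 of the lower ones. Zfp598, which encodes a ubiquitin ligase that senses collided ribosomes, had 5. In Zfp503 a pair on the reverse strand of the 5′ end went from 97.0% to 52.3% and from 90.6% to 43.1%. In Zfp598 a pair in the body went from 100% to 73.9% and from 100% to 68.9%. With counts halved and rounded up, only 2 cytosines of all Zfp genes were called lower, so nearly all of these calls were lost. The origin of the reads at Zfp993, on chromosome 4 like Zfp978, was not tested.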
